A study of Mus musculus with 12 samples.

Results

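mir-210 is the microRNA hairpin listed as mmu-mir-210, chosen by its name in all 12 small RNA libraries and also because of the levels it showed in them. It is 1 of 1050 miRNA hairpins with reads in any library, and it collected 56851 reads in all. Because it was chosen on its own levels, those levels are described here with no test. The libraries fall into 5 groups. Mature epididymal sperm came from male C57BL6/J mice on the control diet (CD, 3 libraries) or the high-fat diet (HFD, 3 libraries), fed from 4 weeks of age for 7 weeks, and the sperm of 3 mice was pooled for each library. The labels give 16% and 69% of energy from fat for the CD and the HFD, whereas the methods give a lower share for the HFD. TM4, a mouse cell line derived from Sertoli cells, was left non-treated (Ctrl, 2 libraries), exposed to Compound C (CC, an inhibitor of the energy sensor AMPK, 10 µM for 12 hours, 2 libraries) or made to overexpress Ang, the RNase angiogenin, from its full-length coding sequence (Ang OE, 2 libraries). CC and Ang OE were compared with the same 2 Ctrl libraries. No empty-vector control is described, so the effect of delivering the construct and that of Ang cannot be told apart. A solvent control for these CC libraries is not described either, so effects of the solvent and of CC cannot be told apart. The libraries hold no mRNA, so the level of Ang was not checked. The labels do not say whether TM4 libraries came from separate cultures, so the spread between them may be technical.

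miR-210 is the best known miRNA of low oxygen. Its gene is a direct target of the transcription factor HIF-1, and among its own targets are the iron-sulfur cluster scaffold proteins ISCU, which serve the mitochondrial respiratory chain. AMPK responds to the energy state of the cell and HIF-1 to low oxygen, and the seminiferous tubules have no blood vessels of their own.

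The sequences below are the RefSeq entries on GRCm38.p6 and are shown because the deposited counts combine both arms of the hairpin, so that each value below is a sum over these molecules. Capitals in the arms mark the seed, bases 2 to 8, which pairs with target mRNAs. In the hairpin they mark the 5p arm and then the 3p arm.
miR-210-5p: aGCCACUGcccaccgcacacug
miR-210-3p: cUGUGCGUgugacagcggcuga
mir-210 hairpin: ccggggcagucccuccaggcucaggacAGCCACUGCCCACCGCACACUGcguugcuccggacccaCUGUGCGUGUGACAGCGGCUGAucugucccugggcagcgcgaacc

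The hairpin lies on the minus strand at chr7:141221384-141221493. The 5p arm is at chr7:141221445-141221466 and the 3p arm, the one usually found loaded in Argonaute, at chr7:141221407-141221428. No RefSeq gene overlaps the hairpin other than its own. Its nearest neighbours are Rassf7, 2725 bases away, and Gm51460, 6712 bases away. Neither seed was shared with another of the 1679 mature miRNA names in the table, so mir-210 forms a family of its own by seed. Guanine and cytosine make up 63.6% of the 3p arm and 68.2% of the 5p arm.

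Depth was ample for mir-210. Libraries held 31710445 to 64038150 clean reads, of which 11412945 to 35704399 were miRNA reads, and mir-210 had 2104 to 11371 reads in each. The 95% Wilson interval of its share spanned 1.84% to 4.27% of the value on either side, which covers counting error only. All 12 counts of mir-210 were whole numbers, so no read had been divided between it and another hairpin. Every mir-210 read matched the genome. A count of 0 unmatched reads allows a share of up to 0.0264% in the library with the most mir-210 reads and up to 0.143% in that with the fewest. Replicates differed by more than counting noise over the hairpins (chi-square per degree of freedom 241 to 1522). HFD replicate 1 stood apart, at 1184 and 1522 from HFD replicates 2 and 3, which differed from each other by 296.

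Levels are given as reads per 1000000 miRNA reads (CPM) and, given separately, as reads per 1000000 clean reads without rRNA (RPM). In CD sperm, mir-210 stood at 193, 232 and 172 CPM, a mean of 199 ± 30.5 (SD, n = 3). In HFD sperm it stood at 151, 252 and 350 CPM, a mean of 251 ± 99.8 (SD, n = 3). The HFD libraries therefore held both the lowest and the highest of the 6 sperm values, with HFD replicate 1 below every CD library and HFD replicates 2 and 3 above them. In TM4 cells, the Ctrl libraries had 144.0 and 148.3 CPM (mean 146 ± 3.06, SD, n = 2). Those exposed to CC had 126.9 and 140.4 CPM (mean 134 ± 9.52, SD, n = 2). Ang OE libraries had 318.9 and 337.2 CPM (mean 328 ± 13.0, SD, n = 2), higher than in each of the other 4 TM4 libraries. By read number mir-210 ranked 85 to 121 among the hairpins in sperm, 128 to 132 in Ctrl and CC cells and 97 to 101 in Ang OE cells. In bulk RNA, fewer cells of a type and less RNA per cell cannot be told apart.

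**Figure D1:**
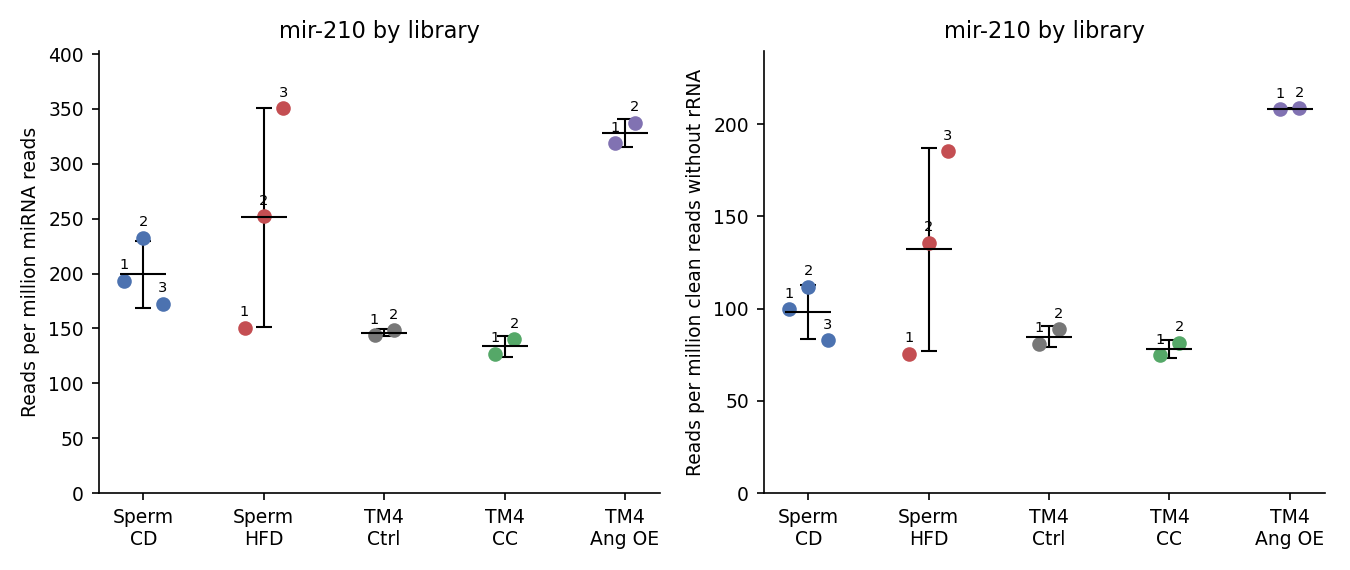
mir-210 in each of the 12 libraries, in reads per 1000000 miRNA reads (left panel) and in reads per 1000000 clean reads without rRNA (right panel), with replicate numbers beside the points, the group mean as a bar and the SD as whiskers. The Ang OE libraries lie above the other TM4 libraries on both scales, and the HFD libraries spread from 151 to 350 CPM around the CD libraries.

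Ordered by mean CPM, Ang OE came first, followed by HFD sperm, CD sperm, Ctrl and CC. Ang OE and HFD sperm, a ratio of means of 1.31, overlapped in range, as did HFD and CD sperm, with a ratio of 1.26. CD sperm lay above Ctrl TM4 cells without overlap, by 53.2 CPM against an SD of 30.5. Ctrl lay above CC by 12.5 CPM against an SD of 9.52, also without overlap. The order of means was the same in RPM, but its gaps were not. The RPM values were 99.7, 112 and 82.9 in CD sperm and 75.6, 136 and 185 in HFD sperm. They were 81.0 and 88.8 in Ctrl, 74.7 and 81.5 in CC and 208.1 and 208.5 in Ang OE cells. On that scale CD sperm overlapped Ctrl cells and Ctrl overlapped CC, while Ang OE cleared HFD sperm by a ratio of 1.58. The share of miRNA among the non-rRNA reads moved with the groups, at 48.1% to 53.8% in sperm, 56.2% to 59.9% in Ctrl and CC and 61.8% to 65.3% in Ang OE cells.

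The first comparison asked whether the paternal HFD goes with a change of small RNAs in sperm. The mean log2 CPM of mir-210 was higher in HFD by 0.26 (0.33 as the log2 ratio of the mean CPM), against an SD within groups of 0.46, so the difference was smaller than the spread between libraries. Leaving out HFD replicate 3 gave −0.02, and leaving out HFD replicate 1 gave 0.59. In the edgeR quasi-likelihood fit with TMM scaling its log2 fold change was 0.24 ± 0.29 (SE), and 58 of the 451 hairpins tested, 12.9%, had one at least as high. The same fit called 0 of 451 hairpins at an adjusted p under 0.05, 0% in either direction. At an unadjusted p under 0.05 it gave 31 hairpins (6.87%), and DESeq2 called 8, of which 1 was higher and 7 lower. Groups that did not overlap in CPM were also few, at 3.99% of hairpins higher and 2.22% lower in HFD, and mir-210 was not among them.

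Marker lists of other cells also varied among the sperm libraries. All 5 epithelial markers, of the mir-200 family, had reads in each sperm library, and their summed level was 9281, 10573 and 9325 CPM in CD and 8946, 11272 and 14327 CPM in HFD sperm. The library with the lowest mir-210 was thus lowest in epithelial markers, and that with the highest was highest. Within the list mir-200b and mir-200c went the other way, with their highest values in HFD replicate 1. All 4 red blood cell markers were present, summing to 26237 to 34490 CPM in CD sperm and to 50595, 36163 and 25239 CPM in HFD replicates 1, 2 and 3. The 3 white blood cell markers summed to 580 to 676 CPM in CD and to 1422, 780 and 917 CPM in HFD sperm, with HFD replicate 1 again the highest. The 6 testis germ cell markers were present in every sperm library, at 2934 to 8359 CPM in CD and 3106 to 4101 CPM in HFD sperm. None of the 6 had a log2 fold change above 0, beside 47.0% of all hairpins (median −0.55, beside −0.01). All 3 white blood cell markers (median 0.49), all 4 red blood cell markers (median 0.26) and the endothelial marker (0.21) did. So did 3 of 5 epithelial and 3 of 6 smooth muscle markers. Single libraries moved these medians. That of the germ cell list went to −0.25 without CD replicate 2, with 1 of 6 above 0, and to −0.99 without HFD replicate 1. Without HFD replicate 1 the white blood cell median was 0.0017, with 2 of 3 above 0, and the red blood cell median 0.09, with 2 of 4 above 0. The endothelial marker mir-126a was at 686 to 896 CPM in CD and 847 to 1223 CPM in HFD sperm. The 6 smooth muscle markers, nearly all of it mir-143, summed to 33628 to 50989 CPM in CD and 30652 to 56169 CPM in HFD sperm. No member of these lists passed the test between diets, and their part in the mir-210 levels was not tested.

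The second comparison asked how small RNAs of TM4 cells differ after CC, which was used to inhibit AMPK. The mean log2 CPM of mir-210 in CC minus that in Ctrl was −0.13, with an SD within groups of 0.08, and the ratio ran from −0.20 to −0.06 with 1 library left out. The edgeR log2 fold change was −0.12 ± 0.12 (SE). Of the 533 hairpins tested, 24% lay below Ctrl without overlap in CPM, as mir-210 did, and 23.1% above it. A log2 fold change at least as high as that of mir-210 was found in 65.7% of hairpins, so mir-210 did not stand out. At an adjusted p under 0.05 edgeR called 22 of 533 hairpins, 4.13%, of which 12 were higher (2.25%) and 10 lower (1.88%), and 17.6% had an unadjusted p under 0.05. With either CC library left out edgeR called 0 hairpins (76 without CC replicate 1 and 68 without CC replicate 2 at an unadjusted p under 0.05).

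The third comparison asked what Ang overexpression does to the same cells. The mean log2 CPM of mir-210 was higher in Ang OE by 1.17, with an SD within groups of 0.05, and leaving out 1 library gave 1.13 to 1.21. With TMM scaling the edgeR log2 fold change was 1.44 ± 0.12 (SE). Only 16 of 533 hairpins, 3%, had a log2 fold change at least as high, mir-210 included. The scaling set the size of the ratio, which was 1.30 per non-rRNA read. Many hairpins differed in this comparison: edgeR called 204 of 533 at an adjusted p under 0.05, 38.3%, with 129 higher (24.2%) and 75 lower (14.1%), and 47.7% had an unadjusted p under 0.05. In CPM 25.1% of hairpins lay above Ctrl without overlap, mir-210 among them, and 45.2% below it. The split was 98 higher and 103 lower with the non-rRNA reads as library size, and 81 higher and 139 lower with all miRNA reads. The median log2 fold change of all hairpins was 0.06 with TMM, −0.08 with non-rRNA reads and −0.21 with all miRNA reads, and mir-210 lay above it by more than 1 log2 unit in each.

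**Figure D2:**
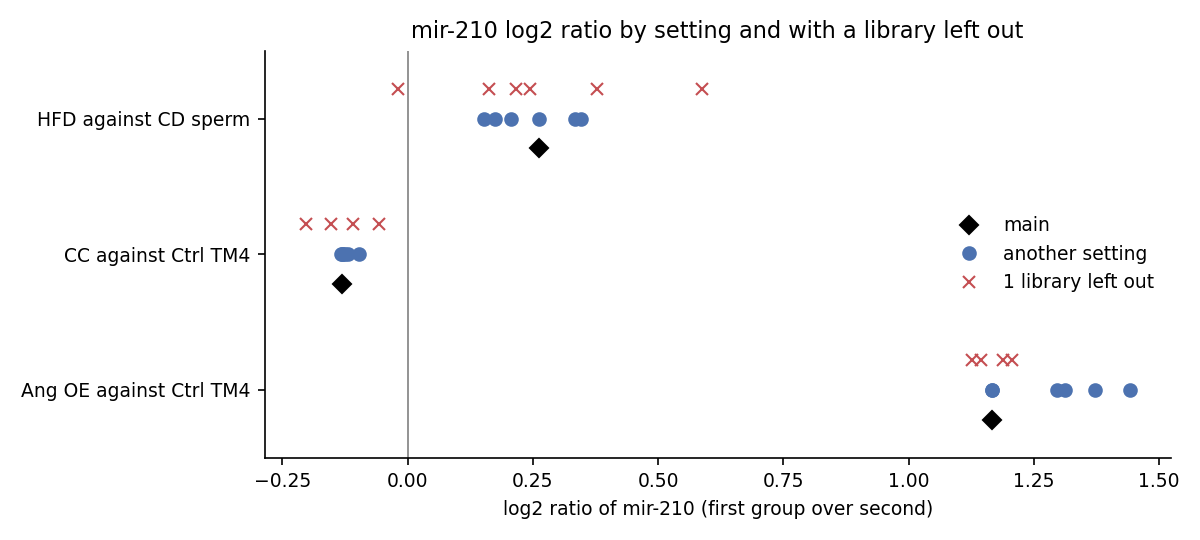
log2 ratio of mir-210 (horizontal axis) in the 3 comparisons as given in the text (diamonds), under other scalings or averages (circles) and with 1 library left out (crosses). The sperm ratio runs from −0.02 to 0.59 and the CC ratio stays below 0, while the Ang OE ratio lies between 1.13 and 1.44 throughout.

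Members of some marker lists changed in TM4 cells too. Of the testis germ cell list 4 of 6 members were tested, and all 4 rose in Ang OE (mir-34b, mir-34c, mir-449a and, at under 1 CPM in every library, mir-871), beside 24.2% of all hairpins. Only mir-34c and mir-449a were called with all miRNA reads as library size and without Ang OE replicate 2, and mir-871 was called in only 3 of the 10 alternatives that held it. The list summed to 1017 to 1050 CPM in Ctrl, 934 to 1025 CPM in CC and 1932 to 2045 CPM in Ang OE cells, nearly all of it mir-34c, a miRNA that p53 also induces outside germ cells, while mir-880 was at 0 in all 6 libraries. Of the smooth muscle list, mir-143 and mir-145a rose in Ang OE, with log2 fold changes of 1.38 and 0.40, while mir-133a-1 and mir-133a-2, at under 1 CPM, had −1.40 each and did not pass the test, so that the median of the 4 tested was −0.50. The groups of mir-145a overlapped in CPM, and it was not called with non-rRNA or all miRNA reads as library size or without Ang OE replicate 1. The list summed to 49715 to 55567 CPM in Ctrl, 51423 to 73465 CPM in CC and 94556 to 129039 CPM in Ang OE cells. Its members mir-1a-1 and mir-1a-2 were at 0 in all Ctrl and CC libraries. The endothelial marker mir-126a rose by 1.25, from 103 to 107 CPM in Ctrl to 194 to 219 CPM in Ang OE cells, with 83.9 to 104 CPM in CC. The 5 epithelial markers summed to 1.28 to 2.38 CPM in all 6 TM4 libraries, near 0, and none of the 2 tested passed the test. The red blood cell members mir-486a and mir-486b fell in both CC (beside 1.88% of all hairpins lower) and Ang OE (beside 14.1%), with no call in CC when either CC library was left out. They are near-identical copies with nearly equal values and count as a single observation. The list summed to 2737 to 2857 CPM in Ctrl, 1879 to 1956 CPM in CC and 1762 to 1784 CPM in Ang OE cells. Its defining marker mir-451a was below 1 CPM in each of them. The 3 white blood cell markers summed to 2.23 to 4.30 CPM. The part of these changes in the mir-210 level was not tested. No list of Sertoli cell miRNAs was fixed, so the identity of the line was not checked.

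miRNAs other than mir-210 have been reported to rise in low oxygen, and 22 of them, from general knowledge, made a list. All 22 passed the filter on low counts in each comparison. In sperm, edgeR called 0 of 22 (0 at an unadjusted p under 0.05, and 0 with DESeq2), and the median log2 fold change was −0.10 beside −0.01 over all hairpins. In CC, 2 of 22 rose (beside 2.25% of all hairpins) and 0 fell (beside 1.88%). These were mir-103-1, at a mean of 1444 CPM against 1021 in Ctrl, and mir-103-2, at 1504 against 1061 CPM (log2 fold changes 0.50 and 0.51, both at an adjusted p of 0.00714 by edgeR). They are near-identical copies that share reads, and neither was called without Ctrl replicate 1, CC replicate 1 or CC replicate 2. The list's median in CC was 0.02, beside −0.03 over all hairpins.

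In Ang OE cells, 10 of the 22 rose (45.5%, beside 24.2% of all hairpins) and 4 fell (18.2%, near the 14.1% of all hairpins), and the list's median log2 fold change was 0.26 beside 0.06 over all hairpins. The excess that rose was absent when only hairpins reaching 100 reads were tested, as given below. mir-21a, the listed miRNA with the most reads, had 62636 and 63124 CPM in Ctrl, 64190 and 70850 CPM in CC and 106002 and 115668 CPM in Ang OE cells. Both Ang OE libraries lay far above the other 4, and its log2 fold change was 1.09 (edgeR, adjusted p 3.86e-07). mir-27b had 4447 and 4847 CPM in Ctrl, 4575 and 5856 CPM in CC and 7725 and 7801 CPM in Ang OE cells, again with no overlap, and a log2 fold change of 1.01 (edgeR, adjusted p 3.30e-06). mir-26b and mir-192 rose by 1.05 and 0.96 on the log2 scale. mir-181a-2 went the other way, from 5060 and 5053 CPM in Ctrl, with 5928 and 5342 CPM in CC, to 3073 and 2915 CPM in Ang OE cells (log2 fold change −0.48, edgeR, adjusted p 0.000884). Its near-identical copy mir-181a-1 fell by the same 0.48, and mir-23a and mir-23b fell by 0.33 each, but mir-23a was not called without Ctrl replicate 2, nor mir-23b without Ctrl replicate 1, Ctrl replicate 2 or Ang OE replicate 2. With no filter on low counts neither was called, and 9 of the 22 rose and 2 fell, beside 15.3% and 8.21% of all hairpins.

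The other 6 hairpins that rose did so by less than those 4, and their calls depended on the scaling, and 4 of them, other than the mir-26a copies, also on single libraries. mir-26a-1 and mir-26a-2, which share reads and count as a single observation, had a log2 fold change of 0.54. mir-322 had one of 0.35, mir-107 one of 0.33, mir-155 one of 0.32 and mir-24-2 one of 0.26. In CPM the Ang OE and Ctrl groups of mir-322, mir-107, mir-155 and mir-24-2 overlapped. The mean of mir-24-2 was lower in Ang OE, at 1623 CPM against 1638 in Ctrl, and 1 of 11 alternatives called it. With all miRNA reads as library size 4 of 22 rose and 8 fell, beside 15.2% and 26.1% of all hairpins, so that the share that rose was near the background. The list's median was then −0.02, beside −0.21, and the 4 that rose were mir-21a, mir-26b, mir-27b and mir-192. With the non-rRNA reads 6 rose and 5 fell, beside 18.4% and 19.3%. DESeq2 had 8 rise and 5 fall, beside 21.6% and 14.8%. When only hairpins reaching 100 reads were tested, 6 of 22 rose and 6 fell, beside 32.2% and 28.1%. Neither share was then above that of all hairpins, and the list's median was 0.14 beside 0.08. With a library left out, 6 rose and 3 fell without Ctrl replicate 1, 8 and 2 without Ctrl replicate 2, 6 and 4 without Ang OE replicate 1, and 8 and 3 without Ang OE replicate 2. The shares of all hairpins in these fits were 17.2% to 21.2% higher and 9.51% to 13.0% lower. mir-24-2 turned to −0.013 with all miRNA reads. The log2 fold change of mir-210 with TMM, 1.44, was larger than that of each listed member, of which mir-21a came nearest. Since mir-210 was chosen on its own levels and the list was not, this order is a description only.

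**Figure D3:**
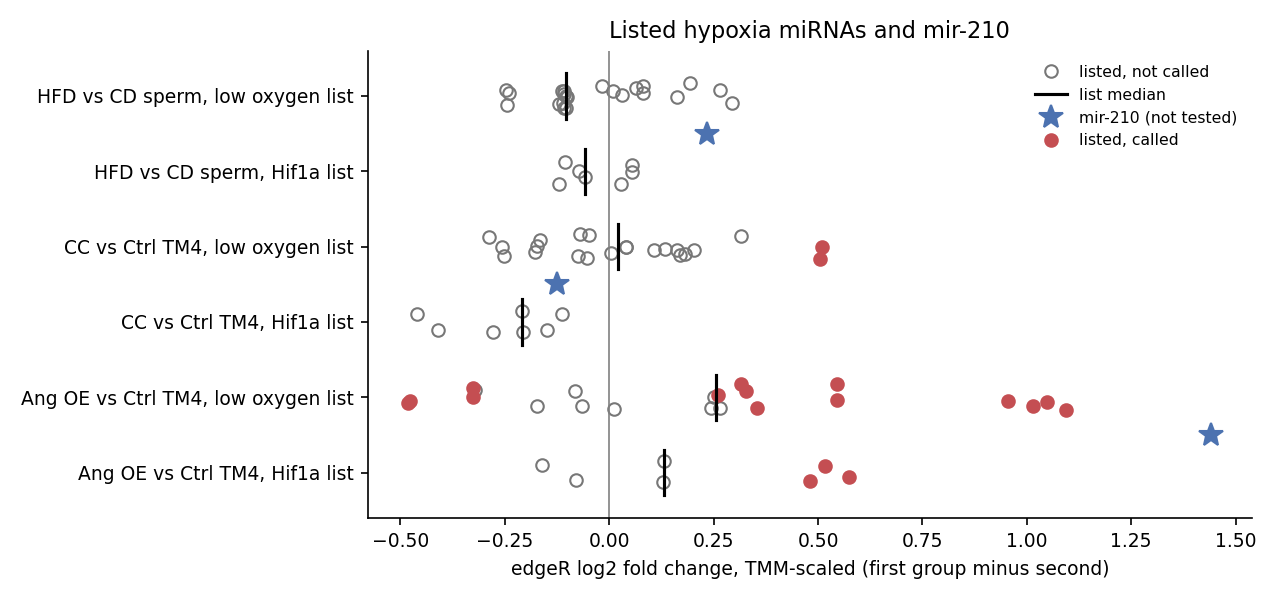
edgeR log2 fold changes with TMM scaling (horizontal axis) of the listed miRNAs in the 3 comparisons, filled where called at an adjusted p under 0.05, with the list median as a bar and mir-210, which was not tested, as a star between the rows. In Ang OE 10 low-oxygen miRNAs lie on the higher side and 4 on the lower side among the called points, and mir-210 at 1.44 lies beyond them, while 0 of 22 are called in sperm.

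A second list held 8 hairpins reported to target Hif1a, the oxygen-regulated subunit of HIF-1, and 7 were tested, since mir-20b was below the filter in each comparison. edgeR called 0 of 7 in sperm (0 at an unadjusted p under 0.05, and 0 with DESeq2; median −0.06). In CC it also called 0 of 7, with 5 at an unadjusted p under 0.05 (both copies of mir-138, both of mir-199a and mir-20a, beside 17.6% of all hairpins), 0 of 7 log2 fold changes above 0 (beside 48.0% of all hairpins) and a median of −0.21 beside −0.03 over all hairpins. In Ang OE cells 3 of 7 rose (beside 24.2% of all hairpins) and 0 fell (beside 14.1%): mir-20a by 0.48, mir-138-1 by 0.57 and mir-138-2 by 0.52, with a median of 0.13. The mir-138 copies, like those of mir-199a, had nearly equal values, so these counts include duplicates. These calls depended on scaling and on single libraries. With all miRNA reads as library size 0 of 7 were higher and 2 lower, beside 15.2% and 26.1% of all hairpins. The list's median was 0.078 both without Ang OE replicate 1 and without Ctrl replicate 1.

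The hairpins whose levels followed mir-210 most closely were found by the root mean square difference of log2(CPM + 1) profiles, each centred on its own mean, among hairpins averaging at least 100 reads. The points share their libraries and their scaling to all miRNA reads, so the likeness is a description. Over the 12 libraries, with 331 hairpins compared and a median difference of 1.42, the closest were let-7f-1 (0.19), let-7f-2 (0.20), let-7g (0.28), mir-467e (0.29) and mir-29c (0.36). Over the 6 TM4 libraries, with 306 compared and a median of 0.64, they were let-7f-2, let-7f-1, mir-34c and mir-669b (0.11 each) and mir-98 (0.12). let-7f-2 had 2991 and 2775 CPM in Ctrl, 2747 and 3234 CPM in CC and 6381 and 6301 CPM in Ang OE cells. mir-98 had 831 and 758 CPM in Ctrl, 763 and 923 CPM in CC and 1737 and 1796 CPM in Ang OE cells. In both, as in mir-210, the Ang OE libraries stood above the other 4, and Ctrl and CC overlapped, which for mir-210 they did not in CPM. The let-7f copies share reads and count as a single likeness.

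The let-7 members among them carry a seed in common that differs from both seeds of mir-210, as their mature sequences show, with the seed in capitals.
let-7f-5p: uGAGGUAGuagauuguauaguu
let-7g-5p: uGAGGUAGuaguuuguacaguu
miR-98-5p: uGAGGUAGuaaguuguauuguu

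let-7f is encoded at chr13:48537889-48537910 and chrX:151912353-151912374, let-7g at chr9:106178846-106178867 and miR-98 at chrX:151913229-151913250. The let-7 seed was held by 11 mature names, and these arms had 31.8% to 36.4% guanine and cytosine. Over the 6 sperm libraries alone, a set chosen after the data were seen, the closest of 256 hairpins were mir-29c (0.10), mir-96 and mir-141 (0.12 each) and mir-429 and mir-27a (0.14 each), beside a median of 0.43. mir-141, an epithelial marker of the mir-200 family, had 4250, 4322 and 3772 CPM in CD and 2811, 5795 and 7737 CPM in HFD sperm, with HFD replicate 1 lowest and HFD replicate 3 highest as for mir-210. In TM4 cells mir-141 was below 2 CPM in every library.

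**Figure D4:**
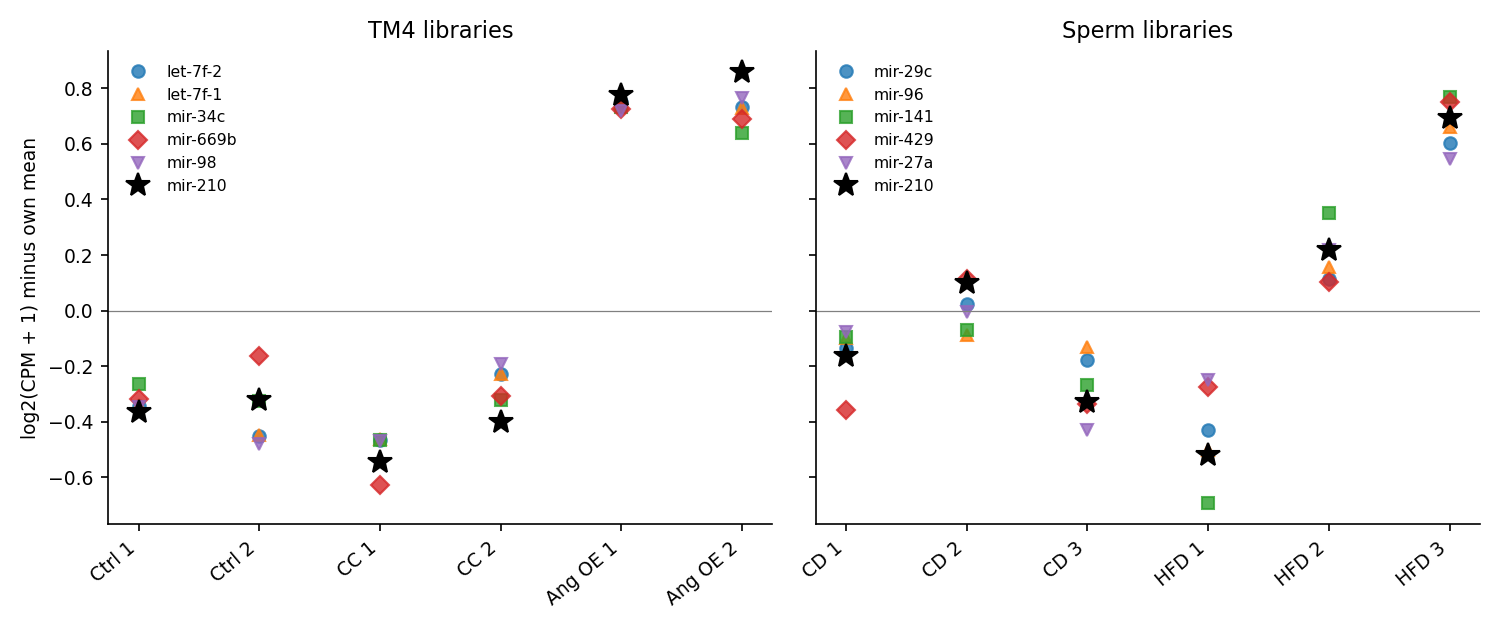
log2(CPM + 1) of mir-210 (stars) and of the 5 hairpins most like it, each minus its own mean over the libraries shown (vertical axis), by library, for TM4 cells and for sperm. In TM4 cells the points rise together in both Ang OE libraries, and in sperm they are lowest or near lowest in HFD replicate 1 and highest in HFD replicate 3.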

How the data were processed

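The authors trimmed the reads (FastQC 0.12.0 and Trimmomatic 0.40 per the labels, build mm10) and annotated those of 15 to 45 nt with SPORTS1.1, allowing a mismatch. The deposited values are estimated counts per miRNA hairpin, since reads that matched several hairpins were divided among them, with no normalization for depth. The study adjusted TM4 data with ComBat-seq, but the labels name no batch and none was used here. Reads with and without a genome match were added in Python 3.11.15 (numpy 2.4.6, pandas 2.3.3, scipy 1.17.1), and matplotlib 3.10.9 drew the figures.

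Hairpins reaching 10 reads in 3 or more sperm libraries, or in 2 or more TM4 libraries, were tested as rounded counts with edgeR 4.0.16 (R 4.3.3), TMM scaling and Benjamini-Hochberg adjustment over all hairpins tested. All 6 TM4 libraries entered 1 model. DESeq2 1.42.0 was an alternative. The script was tested on simulated data. Named hairpins are mir-210, the 5 most alike, the 3 low-oxygen members with the most reads and other listed members, called or not. mir-210, the lists and the tests were chosen with earlier results of these data known. RefSeq sequences (GRCm38.p6) were matched by name.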

Additional observations from a re-analysis of the deposited data

How the results depend on the processing

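The log2 ratio of mir-210 in Ang OE moved by more than its SD with the scaling: 1.30 per clean read without rRNA, 1.31 per clean read, 1.37 with DESeq2 size factors and 1.44 with TMM factors, beside 1.17 per miRNA read. With a library left out, mir-210 ratios ran from −0.02 to 0.59 for HFD, from −0.20 to −0.06 for CC and from 1.13 to 1.21 for Ang OE. Hairpins called numbered 8 with DESeq2 in place of 0 for HFD, and 0 to 26 for CC and 157 to 175 for Ang OE with a library left out. Leaving 1 library in a TM4 group assumes that it varies like the others. With the replicate number as a block, 35 hairpins were called for CC in place of 22, 222 for Ang OE in place of 204, and 0 for HFD. Same-numbered libraries correlated at −0.41, −0.39 and 0.09 in sperm and at −0.12 for Ctrl with CC, −0.19 for Ctrl with Ang OE and 0.35 for CC with Ang OE. The numbers were therefore not taken to pair the groups compared, and whether a batch lies behind the positive value in TM4 was not tested. The log2 fold change of mir-24-2 in Ang OE turned to −0.013 with all miRNA reads as library size, a setting added after the data were seen. Of 1941 alternatives for single hairpins, 1712 kept direction and side of the threshold and 146 changed sign with no call in either setting. A further 68 lost the call, 14 gained it and 1 changed sign with a call in at least 1 setting. With every unmatched share at 0, no test between diets was made. With 2 or 3 libraries a group, replicate number and not depth limits the precision.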
